A study of Mus musculus with 6 samples.

Results

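Expression of 8 chemokine genes, *Cxcl1*, *Cxcl5*, *Cxcl10*, *Cxcl12*, *Cxcl16*, *Ccl2*, *Ccl7* and *Cx3cl1*, was compared between WT and MSTN-KO myoblasts by RNA-seq. The genes were taken by symbol from a list of ligands, chosen with earlier results of these data known. They were matched through the GENCODE M21 annotation to the Ensembl identifiers in the files. All 8 were among the 14548 genes with values. C2C12 is an established mouse line of myoblasts, the cells that fuse into skeletal muscle fibres, and all cultures were grown in DMEM with fetal bovine serum. The 3 WT libraries came from C2C12 cells with the genotype WT in the labels. The 3 MSTN-KO libraries came, by the study's text, from C11, 1 line edited with CRISPR/Cas9 in exon 3 of *Mstn*, the gene of the muscle growth inhibitor myostatin. In the labels, however, all 6 libraries carry the strain name C11, and the groups here follow the genotype. The loss of myostatin therefore cannot be told apart from any other difference between this line and the WT cells, and the labels do not say whether replicates were separate cultures, so p-values measure the spread between these libraries. *Mstn* had 0.0211, 0 and 0.0399 FPKM in replicates 1 to 3 of WT, against 0.0269, 0.0586 and 0.0390 FPKM in those of MSTN-KO, too little in either group to check the labels. FPKM counts the fragments on a gene per length of its transcript and per total of fragments in its library, so levels of different genes can be set side by side. WT replicate 3 stood apart from the other WT libraries in myotube markers, which summed to 193 FPKM there, to 710 and 670 FPKM in WT replicates 1 and 2 and to 28.4 to 48.4 FPKM in MSTN-KO, so the fold changes are also given without it.

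Chemokines are small secreted proteins that bind receptors of the G protein-coupled kind and guide the movement of cells. They are held on heparan sulfate chains at the cell surface, and families are told apart by the spacing of the first cysteines of the mature protein. In injured muscle, chemokines draw neutrophils and then monocytes into the tissue, and *Cxcl12* with its receptor *Cxcr4* guides migrating muscle precursors during development. Only RNA was measured here, not secreted protein.

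The class of each gene can be read from its coding sequence. The 30 coding bases around the first cysteine codons of the 8 genes are shown because they part the members into the groups used below. They come from GENCODE M21 transcripts and run 5′ to 3′, with the cysteine codons in capitals.
Cxcl1: gagctgcgcTGTcagTGCctgcagaccatg
Cxcl5: gagctgcgtTGTgttTGCttaaccgtaact
Cxcl12: agctaccgaTGCcccTGCcggttcttcgag
Cxcl10: acggtccgcTGCaacTGCatccatatcgat
Cxcl16: gctggaagtTGTtctTGTgatcgtaccatt
Ccl2: ccactcaccTGCTGCtactcattcaccagc
Ccl7: gcatccacaTGCTGCtatgtcaagaaacaa
Cx3cl1: atgacgaaaTGCgaaatcatgTGCgacaag
The 5 CXC genes had 1 codon between the cysteines, *Ccl2* and *Ccl7* had 0, and *Cx3cl1* had 3. Codons for glutamate, leucine and arginine (the ELR motif of neutrophil attractants) stood right before the first cysteine in *Cxcl1* and *Cxcl5* and in none of the other 6.

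Of the 8 genes, 5 were upregulated in MSTN-KO, 1 was downregulated, and 2 were barely expressed. *Cxcl1*, *Cxcl5*, *Cxcl12*, *Ccl2* and *Ccl7* rose between 5.23-fold and 14.2-fold by group means, and *Cx3cl1* fell. *Cxcl10* and *Cxcl16* did not exceed 0.171 FPKM in any library and were below the minimum of 1 FPKM in at least 1 library, which 10837 genes reached. All 6 tested genes had a limma adjusted p under 0.05 and no overlap between the groups. Over all tested genes, 8.78% were higher and 8.96% lower at this adjusted p, while 19.3% were higher and 18.1% lower with no overlap between the groups. The 5 risen genes were also DEGs, defined as genes with |log2 fold change| above 1 and p under 0.05 before adjustment. Of all tested genes, 1.21% were upregulated DEGs and 2.30% downregulated DEGs. With 1 added to each FPKM before the logarithm, *Cx3cl1* was not among the latter, but with 0.1 added its log2 fold change was -1.13. The median log2 fold change was 2.53 for the 6 tested genes and -0.00078 for all tested genes. The genes were chosen with earlier results of these data known, so these counts and this median describe them without testing the group. In bulk RNA such as this, fewer cells of a kind cannot be told apart from less RNA per cell.

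**Figure D1:**
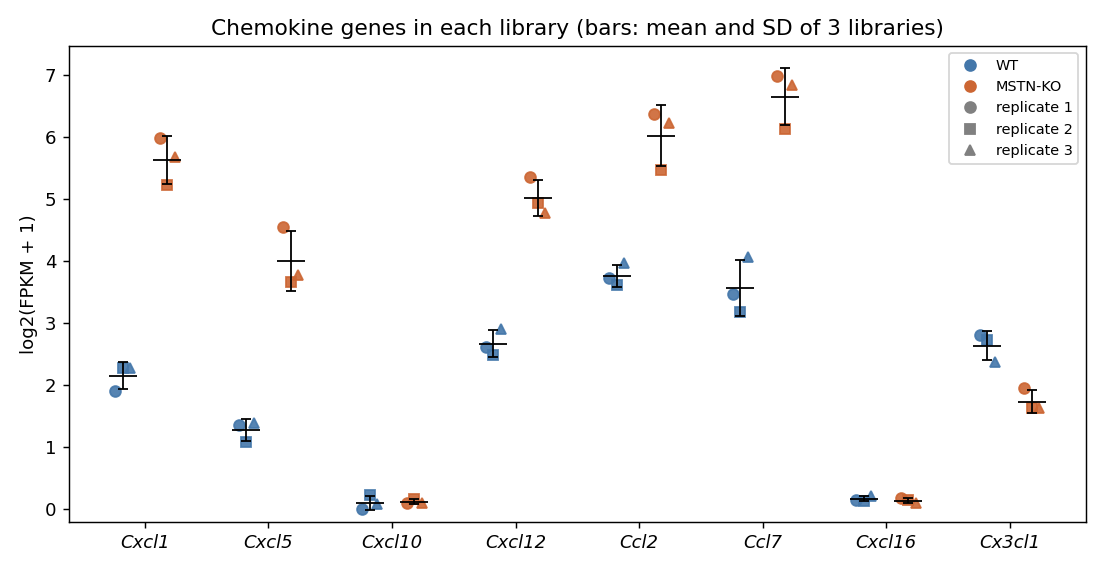
Level of the 8 chemokine genes in each library, as log2(FPKM + 1), with symbols for replicates 1 to 3 and bars for the mean and SD of 3 libraries. The MSTN-KO libraries lie above every WT library for *Cxcl1*, *Cxcl5*, *Cxcl12*, *Ccl2* and *Ccl7* and below every WT library for *Cx3cl1*, while *Cxcl10* and *Cxcl16* stay near 0.

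The order of the genes by level differed between the groups. In WT, *Ccl2* was highest at 12.6 ± 1.71 FPKM (SD, n = 3) and *Ccl7* next at 11.3 ± 3.96 FPKM, and their ranges overlapped. *Cxcl12* and *Cx3cl1* followed at 5.40 ± 0.969 and 5.27 ± 0.957 FPKM, also with overlap, then *Cxcl1* and *Cxcl5* without overlap. In MSTN-KO, *Ccl7* was highest by its mean, followed by *Ccl2*, *Cxcl1* and *Cxcl12*, and each of these overlapped with the next. *Cxcl5* stood below them and *Cx3cl1*, which had been level with *Cxcl12* in WT, came sixth. The summed level of the 8 genes was 37.8, 34.7 and 46.6 FPKM in WT and 334, 191 and 278 FPKM in MSTN-KO. With 14 other chemokine ligand genes in the files added (12 found by a Ccl or Cxcl symbol, and *Ppbp* and *Pf4*), the sum reached 43.4, 40.4 and 52.5 FPKM in WT and 357, 213 and 312 FPKM in MSTN-KO, so the 8 genes made up between 85.9% and 93.4% of this sum in every library.

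The pair with an ELR motif, *Cxcl1* and *Cxcl5*, encodes neutrophil attractants that act through Cxcr2. *Cxcl1* had the largest rise of the 8 genes and ranked 4 among all tested genes. It was at 2.76, 3.83 and 3.85 FPKM in replicates 1 to 3 of WT and at 62.0, 36.1 and 49.8 FPKM in those of MSTN-KO, the order used for all genes. The lowest MSTN-KO library was 9.39 times the highest WT library. The means were 3.48 ± 0.626 and 49.3 ± 12.9 FPKM. On the log2(FPKM + 1) scale the difference was 3.47 (standard error (SE) 0.19, 95% interval 3.06 to 3.87, adjusted p = 8.55e-08 by limma). By its mean, *Cxcl1* stood above 40.5% of all 14548 genes in WT and above 86.2% of them in MSTN-KO.

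*Cxcl5* was at 1.57, 1.11 and 1.63 FPKM in WT and at 22.4, 11.6 and 12.7 FPKM in MSTN-KO. Its 3 MSTN-KO libraries were all above WT, with replicate 1 well above the other two. The means were 1.44 ± 0.282 and 15.6 ± 5.94 FPKM (log2 fold change 2.72, SE 0.22, 95% interval 2.25 to 3.18, adjusted p = 2.41e-06 by limma). Since these levels are low, the pseudocount of 1 lowers this fold change, and with a pseudocount of 0.1 it was 3.31. The ratio of *Cxcl1* to *Cxcl5* was 2.52 ± 0.855 in WT and 3.26 ± 0.596 in MSTN-KO, and the groups overlapped (p = 0.3 by exact permutation, two-sided, with 0.1 the lowest value that 3 against 3 libraries can reach). *Cxcr2*, the gene of their receptor, did not exceed 0.0514 FPKM in any library.

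*Cxcl1* and *Cxcl5* lie in the same region of chromosome 5 of GRCm38, with other chemokine genes between them. *Cxcl5* (ENSMUSG00000029371) runs from 90759360 to 90761624 and *Cxcl1* (ENSMUSG00000029380) from 90891241 to 90893115. Both are on the plus strand with 4 exons each in the longest coding transcript. Within 500 kb on either side, *Ppbp*, another neutrophil attractant named here after its values were seen, had 0, 0.132 and 0.278 FPKM in WT and 1.39, 0.705 and 0.414 FPKM in MSTN-KO (log2 fold change 0.66, adjusted p = 0.0476 by limma). This call was lost without WT replicate 1 (limma adjusted p = 0.157), 2 (0.114) or 3 (0.0535). *Pf4*, also a chemokine gene and named in the same way, was listed at 0 in all WT libraries and reached 0.393 FPKM in MSTN-KO. *Cxcl3* and *Cxcl15*, which also lie between *Cxcl5* and *Cxcl1*, did not exceed 0.135 and 0.0315 FPKM in any library. The 4 tested genes of other kinds in this window were *Ankrd17*, *Mthfd2l*, *Ereg* and *Areg*. Of these, 0 were higher and 1 was lower, against 8.78% and 8.96% of all tested genes. That was *Areg*, the gene of the growth factor amphiregulin, with a log2 fold change of -1.38 (adjusted p = 6.26e-05 by limma). The median over the 681 tested genes of chromosome 5 was -0.06. Of the 1540 stretches of 36 bases in *Cxcl5* transcripts, 61 also occurred in other genes, and for *Cxcl1* 0 did.

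*Cxcl12* encodes the ligand of Cxcr4, which signals through G proteins, and of Ackr3, a receptor that takes the ligand up and removes it. The ligand rose and *Cxcr4* fell, while the call of a fall for *Ackr3* depended on single libraries, as given below. *Cxcl12* was at 5.11, 4.60 and 6.48 FPKM in WT and at 39.6, 29.6 and 26.4 FPKM in MSTN-KO. The means were 5.40 ± 0.969 and 31.8 ± 6.87 FPKM (log2 fold change 2.35, SE 0.17, 95% interval 1.98 to 2.72, adjusted p = 1.15e-06 by limma). The gene (ENSMUSG00000061353) lies on chromosome 6 from 117168535 to 117181367 on the plus strand, and no other tested gene lay within 500 kb of it.

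*Cxcr4* was at 23.7, 19.8 and 19.8 FPKM in WT and at 9.43, 10.1 and 12.5 FPKM in MSTN-KO. Its means were 21.1 ± 2.28 and 10.7 ± 1.61 FPKM (log2 fold change -0.93, SE 0.15, adjusted p = 0.00101 by limma). *Ackr3* was at 45.5, 44.4 and 42.5 FPKM in WT and at 19.5, 37.1 and 30.6 FPKM in MSTN-KO, so the WT libraries lay close together and the MSTN-KO libraries far apart. Its log2 fold change was -0.63 (SE 0.19, adjusted p = 0.0344 by limma). Without MSTN-KO replicate 1 it was -0.38 (adjusted p = 0.150 by limma), and the call was lost in 8 of the 16 alternatives, leaving out WT replicate 1 (0.105), 2 (0.0842) or 3 (0.0579) or MSTN-KO replicate 3 (0.0773) among them.

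Within each library, the ratio of *Cxcl12* to *Cxcr4* was 0.215, 0.232 and 0.328 in WT and 4.20, 2.93 and 2.11 in MSTN-KO. The receptor was thus the more abundant transcript in all 3 WT libraries and the ligand in all 3 MSTN-KO libraries. The ratio of *Cxcl12* to *Ackr3* was 0.112, 0.104 and 0.152 in WT and 2.03, 0.796 and 0.863 in MSTN-KO. It was above 1 in MSTN-KO replicate 1 alone. Neither ratio overlapped between the groups (p = 0.1 for both by exact permutation, two-sided, the lowest value that this design can reach).

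**Figure D2:**
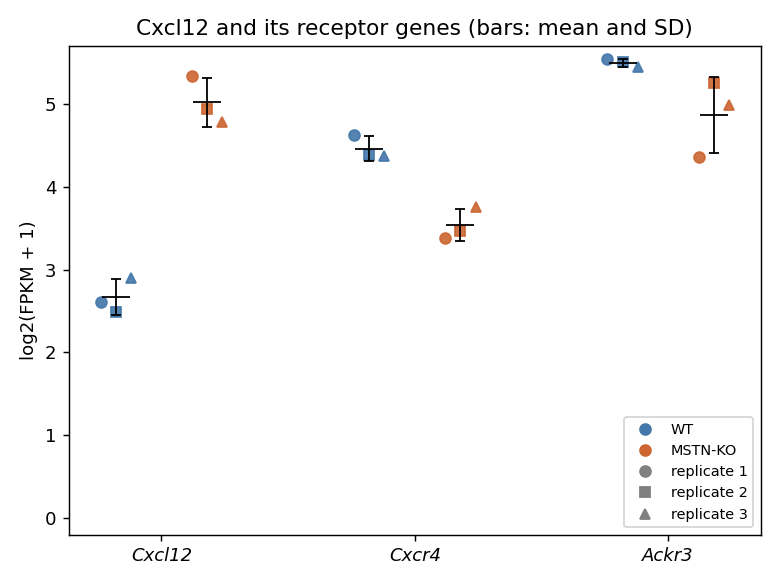
Level of *Cxcl12* and of its receptor genes *Cxcr4* and *Ackr3* in each library, as log2(FPKM + 1), with bars for the mean and SD of 3 libraries. *Cxcl12* lies below both receptors in every WT library and above *Cxcr4* in every MSTN-KO library, where *Ackr3* ranges from 19.5 to 37.1 FPKM.

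*Ccl2* and *Ccl7*, both attractants of monocytes, lie side by side on chromosome 11, *Ccl2* (ENSMUSG00000035385) from 82035571 to 82037453 and *Ccl7* (ENSMUSG00000035373) from 82045712 to 82047525, on the plus strand with 3 exons each. Both rose, *Ccl7* by the larger fold change. *Ccl2* was at 12.1, 11.2 and 14.5 FPKM in WT and at 81.6, 43.1 and 73.6 FPKM in MSTN-KO. Its lowest MSTN-KO library was 2.96 times its highest WT library, the narrowest gap of the 5 risen genes. The means were 12.6 ± 1.71 and 66.1 ± 20.3 FPKM (log2 fold change 2.25, SE 0.20, 95% interval 1.82 to 2.69, adjusted p = 7.82e-06 by limma). An annotated gene, *Gm17268*, overlaps *Ccl2* on the opposite strand, and whether the authors' counting used the strand is not given in the sources used here.

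*Ccl7* was at 10.1, 8.03 and 15.7 FPKM in WT and at 125, 68.5 and 113 FPKM in MSTN-KO. In each MSTN-KO library it was the most abundant of the 8 genes. The means were 11.3 ± 3.96 and 102 ± 29.9 FPKM (log2 fold change 3.08, SE 0.24, 95% interval 2.56 to 3.59, adjusted p = 1.81e-06 by limma). The ratio of *Ccl7* to *Ccl2* was 0.829, 0.715 and 1.08 in WT and 1.53, 1.59 and 1.54 in MSTN-KO. Although the level of *Ccl2* varied 1.89-fold among the MSTN-KO libraries, the ratio there had an SD of 0.0306, against an SD of 0.186 in WT. The groups did not overlap (p = 0.1 by exact permutation, two-sided, again the lowest possible). No stretch of 36 bases in the transcripts of *Ccl2* or *Ccl7* occurred in another gene.

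**Figure D3:**
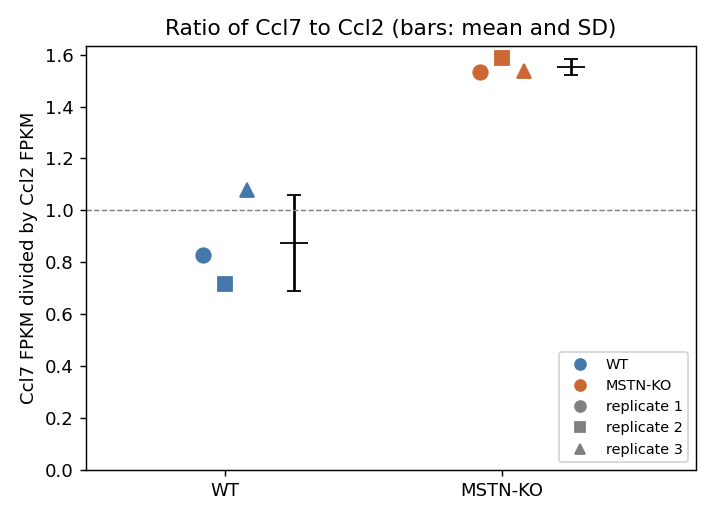
FPKM of *Ccl7* divided by FPKM of *Ccl2* in each library, with bars for the mean and SD of 3 libraries and a dashed line at equal levels. The 3 MSTN-KO libraries lie between 1.53 and 1.59 and the WT libraries between 0.715 and 1.08.

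The other genes in the files within 500 kb, *Ccl11* and *Ccl8*, were CC genes too, further along chromosome 11. *Ccl8* was at 2.21, 2.89 and 2.46 FPKM in WT and at 11.7, 7.56 and 19.5 FPKM in MSTN-KO (log2 fold change 1.89, SE 0.25, adjusted p = 0.000222 by limma). *Ccl11*, an attractant of eosinophils, was at 0.110, 0.135 and 0.0479 FPKM in WT and at 0.795, 0.822 and 0.207 FPKM in MSTN-KO, under the minimum for a test. All 4 CC genes of this window that were in the files were therefore higher in every MSTN-KO library than in any WT library. Of these, 3 were tested, and 19.3% of all tested genes were higher with no overlap. The median over the 907 tested genes of chromosome 11 was 0.03.

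Beyond the 8 genes, the 14 other chemokine ligand genes named above were in the files, and 4 of them were tested, *Ccl8* and *Ppbp* included. All 4 rose, with a median log2 fold change of 1.39, while 8.78% of all tested genes were higher. However, *Ccl9* and *Ppbp* reached the minimum of 1 FPKM in MSTN-KO alone, so they entered the test through the group where they were high. This count and this median therefore depend in part on the filter. Among the 12 found by symbol alone, 3 were tested and rose, with a median of 1.89. *Ccl9*, a ligand of Ccr1, was at 0.374, 0.471 and 0.497 FPKM in WT and at 6.51, 7.53 and 11.6 FPKM in MSTN-KO (log2 fold change 2.69, SE 0.19, adjusted p = 1.15e-06 by limma). *Ccl25*, the ligand of Ccr9, was at 1.02, 0.730 and 1.63 FPKM in WT and at 2.47, 4.66 and 1.99 FPKM in MSTN-KO (log2 fold change 0.89, adjusted p = 0.0213 by limma), and it lost its call in 5 of the 16 alternatives, leaving out WT replicate 1 (limma adjusted p = 0.0809) or WT replicate 2 (0.0831) among them. *Ccl17* and *Cxcl13* went the other way, from at most 0.636 and 0.638 FPKM in WT to values listed at 0 in all 3 MSTN-KO libraries, too low for a test. Besides *Ccl11* and *Pf4*, the other 6 did not exceed 0.601 FPKM.

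*Cx3cl1* and *Cxcl16* encode the chemokines that are made as membrane proteins on a stalk, where they can hold cells in place until proteases shed them. *Cx3cl1* was at 6.03, 5.58 and 4.20 FPKM in WT and at 2.86, 2.09 and 2.09 FPKM in MSTN-KO. All WT libraries were above all MSTN-KO libraries, with WT replicate 3 the nearest to them. The means were 5.27 ± 0.957 and 2.35 ± 0.444 FPKM, so that WT was 2.25-fold higher. On the log2(FPKM + 1) scale the difference was -0.90 (SE 0.17, 95% interval -1.28 to -0.53, adjusted p = 0.00359 by limma). At these low levels the pseudocount of 1 shrinks the difference. With a pseudocount of 0.1 it was -1.13, past the DEG threshold of -1. The gene ranked 321 among the falls with the pseudocount of 1. *Cx3cl1* (ENSMUSG00000031778) lies on chromosome 8 from 94772009 to 94782427 on the plus strand. Of the 15 other tested genes within 500 kb, 0 were higher and 2 lower, and their median log2 fold change was -0.01. Among all tested genes, 8.78% were higher and 8.96% lower. The pair that fell was *Adgrg1* (-0.53) and *Adgrg3* (-1.45), both genes of adhesion receptors, and *Ccl17* lies in the same window. The call of *Adgrg1* (limma adjusted p = 0.0372) was lost without WT replicate 1, 2 or 3 or MSTN-KO replicate 2 or 3 (limma adjusted p from 0.0548 to 0.112).

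*Cxcl16* was at 0.111, 0.0988 and 0.164 FPKM in WT and at 0.130, 0.110 and 0.0686 FPKM in MSTN-KO. It (ENSMUSG00000018920) lies on chromosome 11 from 70453983 to 70459984 on the minus strand and overlaps *Zmynd15* on the other strand. The ranges of the groups overlapped, and without the filter on low values its log2 fold change was -0.03 (adjusted p = 0.698 by limma). *Cxcr6*, the gene of its receptor, was at 0.101, 0.191 and 0.314 FPKM in WT and at 0.565, 0.864 and 0.437 FPKM in MSTN-KO, also under the minimum for a test. Of 9 genes for the shedding and cleavage of chemokines, such as *Adam10* and *Adam17*, 7 were tested, of which 2 were higher and 0 lower, with a median of -0.21. The shares over all tested genes were 8.78% higher and 8.96% lower. *Mmp2*, whose protease cuts and inactivates Cxcl12 and Ccl7, rose from 9.51 ± 0.865 to 21.8 ± 4.93 FPKM (log2 fold change 1.10, adjusted p = 0.000589 by limma). *Rhbdf1*, which helps Adam17 to mature, rose by 0.61 on the log2 scale (adjusted p = 0.00701 by limma), and scaling to a sum of 1000000 ended this call.

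*Cxcl10* is a target of interferon signalling that attracts T cells. It was at 0, 0.171 and 0.0588 FPKM in WT and at 0.0744, 0.126 and 0.0663 FPKM in MSTN-KO, and without the filter its log2 fold change was 0.02 (adjusted p = 0.867 by limma). A difference in *Cxcl10* was thus not detectable at these levels. *Cxcl10* (ENSMUSG00000034855) lies on chromosome 5 as well, from 92346638 to 92348889 on the minus strand, and overlaps *Art3* on the other strand. Of 23 interferon response genes, 10 were tested, 1 was higher and 0 lower, with a median of 0.20. The higher one was *Psmb9*, an immunoproteasome subunit, at 0.174 ± 0.0809 FPKM in WT and 1.41 ± 0.475 FPKM in MSTN-KO (log2 fold change 1.02, adjusted p = 0.00298 by limma). *Psmb9* reached the minimum of 1 FPKM in MSTN-KO alone, so it entered the test through the group where it was high.

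The promoters of *Cxcl1*, *Cxcl10* and *Cxcl12* are shown because these genes rose most, stayed near 0 and rose, respectively. They are the 250 bases before the start site in RefSeq (GRCm38.p6), written 5′ to 3′ on the strand of the gene. Windows were available here for 4 of the 8 genes, with *Cxcl5*, *Ccl2*, *Ccl7* and *Cxcl16* not among them. Capitals mark matches on either strand to a motif of NF-kB (GGG, any 3 bases, TTCC), an interferon-stimulated response element (GAAA, any 2 bases, GAAA), AP-1 (TGANTCA) or C/EBP (TTGCNNNAA).
Cxcl1, chr5:90890995-90891244, plus strand: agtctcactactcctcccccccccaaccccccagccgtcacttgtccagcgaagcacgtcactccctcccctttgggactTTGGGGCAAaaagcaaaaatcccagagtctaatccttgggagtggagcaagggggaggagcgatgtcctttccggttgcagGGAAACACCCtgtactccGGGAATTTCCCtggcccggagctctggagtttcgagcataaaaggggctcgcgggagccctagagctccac
Cxcl10, chr5:92348890-92349139, minus strand: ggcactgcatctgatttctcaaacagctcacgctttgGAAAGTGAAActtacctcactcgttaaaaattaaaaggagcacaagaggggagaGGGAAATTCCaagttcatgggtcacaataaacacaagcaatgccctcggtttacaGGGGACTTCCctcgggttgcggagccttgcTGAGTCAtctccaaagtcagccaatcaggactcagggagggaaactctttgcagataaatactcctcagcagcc
Cxcl12, chr6:117168285-117168534, plus strand: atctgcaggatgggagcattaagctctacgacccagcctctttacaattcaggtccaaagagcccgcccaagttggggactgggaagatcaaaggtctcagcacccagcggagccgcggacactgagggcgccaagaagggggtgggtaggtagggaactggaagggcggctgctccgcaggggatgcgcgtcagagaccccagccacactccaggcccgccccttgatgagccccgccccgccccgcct
The NF-kB motif occurred 3 times in the *Cxcl1* window, the last pair of matches overlapping by all but 1 base. It occurred in 5.56% of the 32851 such windows available from RefSeq, taken with the 50 bases after the start site. The C/EBP motif occurred once, from -170 to -162 (counted back from the start site), and in 9.56% of windows. The *Cxcl10* window held the NF-kB motif starting at -159 and -104, the interferon element starting at -213 (3.44% of windows) and the AP-1 motif starting at -74 (7.81%). The *Cxcl12* window held none of these motifs, and the *Cx3cl1* window held only TATAAA, also searched on both strands and found in 13.6% of windows. Matches describe the letters of these windows, and binding of a factor was not measured.

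Of 21 genes listed for NF-kB and C/EBP, 19 were tested, 2 were higher, 1 was lower, and the median log2 fold change was -0.0018. These shares, 10.5% higher and 5.26% lower, were near the 8.78% and 8.96% over all tested genes. *Cebpa*, a C/EBP transcription factor, rose 3.10-fold, from 5.17 ± 0.764 FPKM in WT to 15.3, 17.5 and 15.2 FPKM in MSTN-KO (log2 fold change 1.47, adjusted p = 2.33e-05 by limma). *Cebpb*, of the same family, was at 44.7 ± 15.9 FPKM in WT and 92.9 ± 36.3 FPKM in MSTN-KO with overlap between the groups (log2 fold change 1.01, adjusted p = 0.0226 by limma), and its call was lost without WT replicate 2 (limma adjusted p = 0.0515), without WT replicate 3 (0.0751), without MSTN-KO replicate 3 (0.133) and under 2 other settings. *Bcl3*, a nuclear partner of NF-kB, fell from 1.00 ± 0.141 FPKM to 0.0362 FPKM in MSTN-KO replicate 1 and to 0 in the other two (log2 fold change -0.98, adjusted p = 0.00175 by limma). *Bcl3* reached the minimum of 1 FPKM in WT alone, so it entered the test through the group where it was high. Of 20 receptors and adaptors upstream, 17 were tested, of which 3 (17.6%) were higher and 0 lower with a median of 0.04. These were *Il6ra* (0.58), *Il17rc* (0.56) and *Tnfrsf1b* (0.49), receptors for interleukin 6, interleukin 17 and TNF, and their calls were lost in 5, 6 and 7 of the 16 alternatives. For *Il6ra* these included leaving out WT replicate 1, 2 or 3 or MSTN-KO replicate 1 (limma adjusted p from 0.0566 to 0.137). For *Il17rc* and *Tnfrsf1b* they included leaving out WT replicate 2 or 3 or MSTN-KO replicate 1 or 3 (limma adjusted p from 0.0668 to 0.103 and from 0.0742 to 0.148).

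Other secreted cytokines went in both directions. Of 20 listed, 10 were tested, 2 were higher and 2 lower, with a median of -0.36. *Csf1*, the growth factor of macrophages, rose from 56.0 ± 1.85 to 116 ± 35.1 FPKM (log2 fold change 0.99, adjusted p = 0.00312 by limma), and *Mif* rose by 0.78 on that scale (adjusted p = 0.00304 by limma) from the far higher level of 2968 ± 34.0 FPKM. *Lif* and *Ctf1*, cytokines of the interleukin 6 family, fell by 0.97 and 0.94 on the log2 scale (limma adjusted p = 0.00277 and 0.00221). *Lif* reached the minimum of 1 FPKM in WT alone, so it entered the test through the group where it was high. Of 17 genes for the heparan sulfate chains that hold chemokines, 14 were tested, 0 were higher and 2 (14.3%) lower, with a median of -0.09. *Sulf1*, which trims sulfate from these chains, had a log2 fold change of -0.90 (adjusted p = 0.00196 by limma). *Hs2st1*, which adds sulfate, had one of -0.50 (adjusted p = 0.0278 by limma) that was lost in 7 alternatives, leaving out WT replicate 1 or 2 or MSTN-KO replicate 1 or 3 among them (limma adjusted p from 0.0743 to 0.133). Of 23 chemokine receptor genes listed, 10 were in the files and 2 were tested, both of them the Cxcl12 receptors described above.

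The 5 risen genes varied between libraries in a shared order. All 5 were highest in MSTN-KO replicate 1 among the MSTN-KO libraries and highest in WT replicate 3 among the WT libraries. In MSTN-KO, 4 of the 5 were lowest in replicate 2, with *Cxcl12* lowest in replicate 3. In WT, 4 of the 5 were lowest in replicate 2, with *Cxcl1* lowest in replicate 1. *Cx3cl1* was highest in MSTN-KO replicate 1 as well, but lowest in WT replicate 3. *Cxcl16*, which stayed near 0 and did not rise, was also highest in MSTN-KO replicate 1 and in WT replicate 3. This order was thus not particular to the risen genes, and its share over all genes was not counted. Without MSTN-KO replicate 1, the log2 fold changes were 3.29 for *Cxcl1*, 2.44 for *Cxcl5*, 2.19 for *Cxcl12*, 2.08 for *Ccl2*, 2.91 for *Ccl7* and -1.01 for *Cx3cl1*. Without WT replicate 3 they were 3.53, 2.78, 2.47, 2.35, 3.32 and -1.03 in the same order, and every one of these calls was kept.

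**Figure D4:**
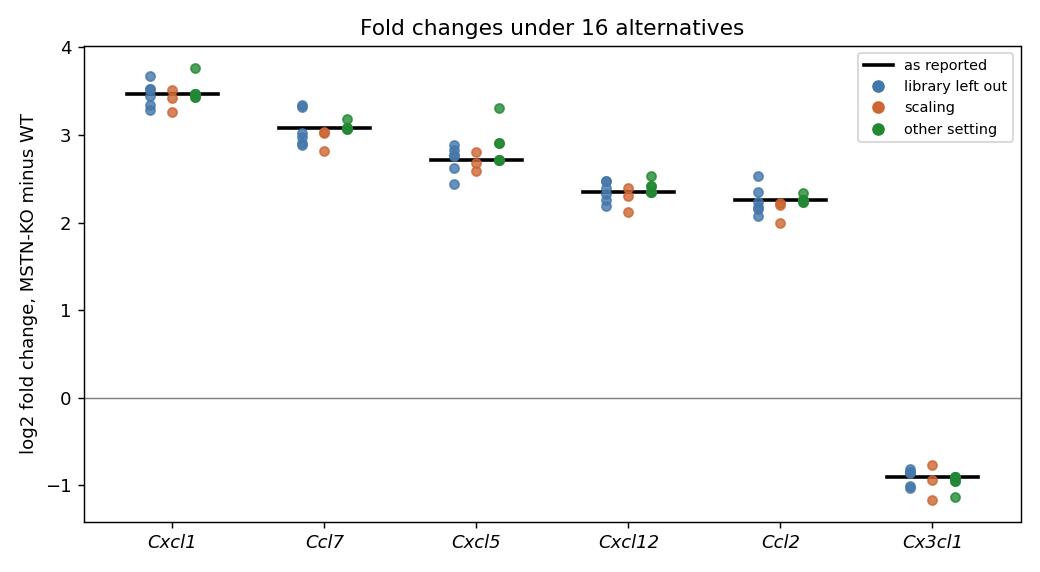
Log2 fold change of the 6 tested chemokine genes as reported (lines) and under the 16 alternatives (points, coloured by left-out library, scaling or other setting), MSTN-KO minus WT on the log2 scale. Every point lies on the same side of 0 as its line, from 3.26 to 3.77 for *Cxcl1* and from -1.17 to -0.77 for *Cx3cl1*.

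The same libraries differed in markers of cell state. Of the myotube markers whose sums were given above, 8 were listed, 7 were in the files (such as *Myog* and *Mylpf*) and 6 were tested, all of them lower in MSTN-KO. Among these, *Myh3* and *Ckm* reached the minimum of 1 FPKM in WT alone and entered the test through it. Over all tested genes, 8.78% were higher and 8.96% lower. WT replicate 3, where the risen chemokines stood highest among the WT libraries, had the lowest myotube sum of WT. MSTN-KO replicate 1 had the lowest of all, at 28.4 FPKM. The other libraries went the other way. MSTN-KO replicate 3 was above replicate 2 both in the myotube sum (48.4 against 41.4 FPKM) and in the sum of the 8 chemokine genes (278 against 191 FPKM). WT replicate 1 was likewise above replicate 2 in both (710 against 670 and 37.8 against 34.7 FPKM). Myoblast markers were present in every library, at 992 to 1408 FPKM in WT and 620 to 762 FPKM in MSTN-KO. Of 7 tested, 4 were lower (*Ncam1*, *Des*, *Myod1* and *Itga7*), 1 was higher and 2 were not called, *Myf5* (log2 fold change 0.08) and *Vcam1* (-0.27). *Myod1* fell from 145 ± 21.0 to 96.1 ± 6.69 FPKM (log2 fold change -0.58, adjusted p = 0.00986 by limma). The higher one, *Pax7*, rose from 1.02 ± 0.260 to 2.19 ± 0.770 FPKM (log2 fold change 0.64, adjusted p = 0.0415 by limma), a call lost without WT replicate 1, 2 or 3 or MSTN-KO replicate 1 or 2 (limma adjusted p from 0.0585 to 0.130). That of *Itga7* (limma adjusted p = 0.0440) was lost without WT replicate 1 or 2 or MSTN-KO replicate 1 or 3 (0.0854 to 0.178). Fibroblast markers, of which 6 of 8 were in the files, summed to 620 to 864 FPKM in WT and 843 to 999 FPKM in MSTN-KO, and of 4 tested, 1 was higher and 1 lower. *Col3a1* rose from 217 ± 39.0 to 346 ± 31.0 FPKM (adjusted p = 0.00765 by limma), a call that ended under quantile normalization and scaling to 1000000. *Dcn* fell from 2.37 ± 0.777 to 1.04 ± 0.518 FPKM (adjusted p = 0.0454 by limma), a call lost without WT replicate 1 or 2 or MSTN-KO replicate 3 (0.153 to 0.167). *Ly6a*, the most abundant of them, was at 543 ± 92.2 and 551 ± 111 FPKM and was not called. The part of these shifts in the chemokine differences was not tested.

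Leukocytes and endothelial cells, which make several of these chemokines in tissue, left little RNA here. The 5 of 12 leukocyte markers in the files summed to 1.19 to 1.61 FPKM in WT and 0.818 to 2.45 FPKM in MSTN-KO, 4 of them under 1 FPKM everywhere. The highest was *Cd68* at 2.39 FPKM. The 6 of 7 endothelial markers in the files all stayed under 1 FPKM, with sums of 0.580 to 0.939 FPKM in WT and 0.155 to 0.349 FPKM in MSTN-KO.

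The summed FPKM of all genes was 723705 to 764524 in the WT libraries and 856314 to 999579 in those of MSTN-KO. How many fragments lie behind the values is unknown, and only relative depths of 0.860 to 1.12 against WT replicate 1 could be estimated from genes under 0.1 FPKM. They rest on the commonest ratio among such genes, sought only near equal depth, so a larger difference could not have shown. Scaling every library to 1000000 shifted the median of all tested genes to -0.26. The 5 risen genes then still lay between 1.99 and 3.26, and *Cx3cl1* at -1.17.

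The genes whose profiles over the 6 libraries came closest to each chemokine gene were sought among 10326 genes with a mean of at least 1 FPKM, by the root mean square distance of centred log2 values. This distance favours genes with a group difference of like size and direction. Chemokine genes were close to each other in 3 cases, *Ccl7* to *Cxcl1* (0.337), *Cxcl12* to *Cxcl5* (0.242) and *Cxcl5* to *Ccl7* (0.331). *Cxcl12* was closest to *C1ra* (0.169) and *C1s1* (0.181), genes of the first complement proteases, and *C1ra* also stood next to *Ccl2* (0.246). *Fgf7*, a growth factor of epithelial cells, was closest to *Cxcl5* (0.160). *Nkx2-5*, a heart transcription factor, was closest to *Cxcl1* (0.246). The microsomal glutathione transferase genes *Mgst1* and *Mgst2* were closest to *Ccl7* (0.318) and *Ccl2* (0.239). The other places went to *Mgst1* for *Cxcl1* (0.256), *Tap2* for *Cxcl5* (0.260), *Fgf7* for *Cxcl12* (0.202), *Plin4* for *Ccl2* (0.259) and *Sod3* for *Ccl7* (0.324). *Cx3cl1* was closest to *Gch1* (0.0948), *Abcc5* (0.0976) and *Tiam1* (0.110).

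The 8 transcripts also differed in AUUUA elements of the 3′ UTR (ATTTA in the annotation), letters that mark many short-lived mRNAs. They were counted after the expression values had been seen. *Cxcl1* held 7 in 592 bases, a density reached by 0.565% of 10621 tested genes. *Ccl7* held 2 in 435 bases and *Cxcl5* 5 in 1111 bases, densities reached by 7.73% and 8.14% of tested genes. For *Ccl2*, the density reached by 13.2% rests on only 1 in 275 bases. *Cxcl10* held 3 in 996 bases (19.8%) and *Cxcl16* 2 in 1421 bases (47.6%). *Cxcl12* held 4 in 5188 bases and *Cx3cl1* 1 in 1871 bases, densities reached by 62.0% and 66.4% of tested genes. The risen genes therefore included both dense and sparse 3′ UTRs, and RNA stability was not measured.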

How the data were processed

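RNA-seq of C2C12 cells (WT, 3 libraries, and MSTN-KO, 3 libraries) was analysed, grouped by genotype and title, since the strain label C11 stands on both groups. The authors deposited FPKM values per gene and library, with no counts. The submitters' notes name Bowtie 0.12.2 and mm8 without a role, and the annotation, strand and gene filter are not given in the sources used here. Positions, lengths and sequences came from GENCODE M21 (GRCm38) by Ensembl identifier (14445 of 14548 matched) and from RefSeq, never from coordinates of the files.

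The fit took log2(FPKM + 1) of genes reaching 1 FPKM in any library and used limma 3.58.1 in R 4.3.3 (eBayes with trend, two-sided, no covariate). Fold changes on this scale understate those of low genes. A gene was called at a Benjamini-Hochberg adjusted p under 0.05 over all 10837 tested genes, and DEGs followed the criteria of the study's methods. The members and lists were chosen with earlier results of these data known. Genes named were the 8 members, every other tested ligand and receptor, up to 6 genes of each other list with the largest called change, and the 3 nearest profiles of each called member. Not every marker gene that this rule takes is described singly.

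The 16 alternatives changed the pseudocount (0.1), the filter (absent, or on the mean), the trend (absent), the scaling (quantiles, percentile 75, or a fixed sum of 1000000), or added a length and GC correction (mgcv 1.9.3), the replicate block with and without it, or left out each library. Tested on simulated data (10652 genes, 200 of them given a log2 change of 2), the fit recovered 99.5% of changed genes and called 9 others. These values were drawn independently, and the changed genes had a mean log2 value of at least 2. Recovery of smaller changes, of lower genes or under shifts shared by a whole library was not tested. Python 3.11.15 with scipy 1.17.1, pandas 2.3.3, numpy 2.4.6 and matplotlib 3.10.9 served for the rest.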

Additional observations from a re-analysis of the deposited data

How the results depend on the processing

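All 6 tested chemokine genes kept their direction and their call under all 16 alternatives. Changing only the filter, the trend or the replicate block cannot move the fold change of a gene, only its SE and p-value. The log2 fold changes lay between 3.26 and 3.77 for *Cxcl1*, 2.44 and 3.31 for *Cxcl5*, 2.12 and 2.53 for *Cxcl12*, 1.99 and 2.53 for *Ccl2*, 2.82 and 3.34 for *Ccl7* and -1.17 and -0.77 for *Cx3cl1*, and the largest limma adjusted p was 0.0243, for *Cx3cl1*. Over all genes, the 131 upregulated and 249 downregulated DEGs became 254 and 500 with a pseudocount of 0.1, and scaling to 1000000, under which the median over all genes was -0.26, gave 92 and 510. Of the 49 other genes tested one by one, 14 lost their call in at least 1 alternative. The filter on the mean left no value for *Bcl3*, *Ppbp* and *Psmb9*, and leaving out MSTN-KO replicate 1 left none for *Ppbp*.

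Over all tested genes, the replicate numbers of the labels gave no sign of pairing. Deviations from the group means correlated at -0.0153, -0.128 and -0.142 between same-numbered libraries and at -0.0691 to 0.161 between the others. So few libraries cannot show that pairing is absent. With the replicate number as a block, the log2 fold changes could not change in this balanced design. All 6 calls were kept, and there were 132 upregulated and 250 downregulated DEGs. The SE became smaller for *Cxcl5*, *Ccl2* and *Ccl7* (0.24 to 0.16 for *Ccl7*) and larger for *Cxcl12* and *Cx3cl1* (0.17 to 0.19 for *Cx3cl1*).

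With FPKM alone, counting error cannot be given, and differences of genes under 1 FPKM, *Cxcl10* and *Cxcl16* among them, could not be resolved.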
